A study of Homo sapiens with 6 samples.

Results

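The snoRNA host genes described here are 32 genes whose transcripts carry small nucleolar RNAs (snoRNAs) in their introns or are named after that role. They were chosen by name from 62754 genes: every gene called SNHG (small nucleolar RNA host gene) followed by a number, and GAS5, ZFAS1, EPB41L4A-AS1 and TAF1D. Of the 32, 26 were expressed at a level that could be tested and 6 were not. The names are those of the deposited tables, and the positions below lie on the human build hg38. Long noncoding genes make up the group except for 2 members: GENCODE v29 lists TAF1D, which encodes a subunit of the RNA polymerase I initiation factor SL1, and SNHG32 as protein-coding.

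RNA was sequenced from HUDEP-2 cells, a human erythroid line made from cord blood and immortalised with viral oncogenes under doxycycline control. The MEN1 shRNA group (n = 3) carried a lentiviral hairpin against MEN1, the gene for menin, a scaffold protein of MLL histone methyltransferase complexes. The control shRNA group (n = 3) carried a hairpin without a target. All cells of both groups grew with erythropoietin (EPO, 3 units per ml), stem cell factor (SCF, 50 ng per ml), dexamethasone (1e-06 M) and doxycycline (1 µg per ml). Both were put under puromycin (2 µg per ml) from 24 h after infection for 48 h, and RNA was taken at 72 h. The titles name 1 MEN1 hairpin and call the replicates biological, without saying whether they were separate cultures or separate infections. Loss of MEN1 and off-target action of this hairpin cannot be told apart, and p-values measure the spread between these libraries.

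Most human snoRNAs are cut from the introns of a host transcript once that transcript is spliced. Box C/D snoRNAs guide 2′-O-methylation of ribosomal RNA, box H/ACA snoRNAs guide pseudouridylation, and the related scaRNAs guide the same changes on small nuclear RNAs in Cajal bodies. The spliced exons of many noncoding hosts have little coding content and are removed by nonsense-mediated decay, and many hosts begin, like ribosomal protein mRNAs, with a terminal oligopyrimidine (TOP) tract. The level of a host in poly(A) RNA is therefore that of the spliced exons and not of the snoRNAs it releases.

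The starts of the hosts with a CTTTT near the first base are shown first, since TOP starts are a feature for which this gene class is known. The windows run from 20 bases before to 20 after the RefSeq start (GRCh38.p14), 5′ to 3′ on the gene's strand, with the CTTTT in capitals. 28 of the 32 members matched a RefSeq promoter entry, 23 of them among the tested genes.
SNHG5, chr6:85678714-85678753, minus strand: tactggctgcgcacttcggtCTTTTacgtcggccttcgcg
SNHG16, chr17:76557744-76557783, plus strand: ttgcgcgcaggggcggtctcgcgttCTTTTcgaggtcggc
SNHG29, chr17:16438967-16439006, plus strand: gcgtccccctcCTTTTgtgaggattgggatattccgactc
SNHG19, chr16:2155339-2155378, minus strand: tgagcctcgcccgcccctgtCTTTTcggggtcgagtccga
SNHG32, chr6:31834896-31834935, plus strand: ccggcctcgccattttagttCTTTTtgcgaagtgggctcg
TAF1D, chr11:93741476-93741515, minus strand: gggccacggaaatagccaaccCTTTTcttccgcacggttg
In SNHG5, SNHG19 and SNHG32 the CTTTT begins at the first transcribed base. It begins at base 2 in TAF1D and base 6 in SNHG16. In SNHG29 it begins at position -9, before the RefSeq start, so its place near a start does not make it a TOP start. Other pyrimidine runs at a start, such as the CTTTC of ZFAS1, were not counted. CTTTT, read on the sense strand within 10 bases of the start, was present in 6 of the 28 windows (21.4%) and in 921 of all 35116 RefSeq windows (2.62%). The 6 hosts did not move one way: SNHG5 and SNHG16 were lower with the MEN1 shRNA, SNHG19 and SNHG32 were higher, and SNHG29 and TAF1D did not pass the test.

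Some snoRNAs of hosts that differed are given to show what these transcripts carry. The letters are the GENCODE v29 transcripts, with the box C motif TGATGA, the box D motif CTGA or the ACA of box H/ACA snoRNAs in capitals where found on the sense strand.
SNORD50B in SNHG5, chr6:85677589-85677658: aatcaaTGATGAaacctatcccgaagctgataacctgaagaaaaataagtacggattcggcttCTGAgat
SNORD1B in SNHG16, chr17:76561109-76561192: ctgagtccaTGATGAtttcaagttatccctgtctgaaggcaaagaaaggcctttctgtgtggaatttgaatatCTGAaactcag
SNORD93 in SNHG26, chr7:22856613-22856686: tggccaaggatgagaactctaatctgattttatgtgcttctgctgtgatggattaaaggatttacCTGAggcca
SNORA78 in SNHG9, chr16:1965184-1965310: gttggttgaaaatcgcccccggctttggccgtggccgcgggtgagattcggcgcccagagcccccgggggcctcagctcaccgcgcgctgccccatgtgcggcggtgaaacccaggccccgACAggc
SNORD50B lies on the minus strand and the other 3 on the plus strand. SNORD50B and SNORD1B hold both boxes, and in SNORD93 the exact letters TGATGA were not present in the first 20 bases. The same was true of SNORD1A and SNORD1C, which SNHG16 also carries and which are not shown. In SNORA78 the ACA starts at base 122 of 127, near the 3′ end.

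MEN1 was examined as a check of the labels and had 6.54 ± 0.303 TPM with its own hairpin and 39.3 ± 2.10 TPM in controls (SD, n = 3 each). TPM is a share of the library scaled by transcript length, with all genes summing to 1000000. The depth inferred from the deposited coverage was 18400000 to 35800000 read pairs per library. Of 8 erythroid markers, 5 were higher with the MEN1 shRNA and 0 lower, beside 22.1% and 31.5% of all genes tested. The others, GATA1, KLF1 and EPOR, did not pass the test. The summed TPM of the 8 markers was 74550 to 82282 against 44533 to 48631, most of it from the globin genes HBB and HBA1. Globin genes held 9.21 to 10.4% of all TPM with the MEN1 shRNA and 5.23 to 5.78% in controls. Markers of other cell types were low or mixed: of 4 myeloid markers MPO and ELANE were at or near 0 and LYZ was lower, at 0.198 against 1.48 TPM (sum over the list 0.363 to 0.944 against 2.08 to 2.37 TPM). Of the lymphoid markers CD3E and MS4A1 were at or near 0 and PTPRC was lower (8.37 to 9.76 against 14.1 to 18.9 TPM), and of 3 megakaryocyte markers PF4 and GP9 were at or near 0 and ITGA2B was lower (sum 16.1 to 20.8 against 31.5 to 36.3). Of 3 mast cell markers TPSAB1 was lower and HPGDS higher (sum 460 to 539 against 585 to 761). The part of these shifts in the host gene results was not tested.

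The host genes moved in both directions, with more of them lower than higher in the MEN1 shRNA libraries. At an adjusted p of 0.05 in limma, 16 of the 26 were called (61.5%), beside 53.6% of all 14294 genes tested. Lower levels were found in 11 hosts, where 31.5% of all genes were lower, and higher levels in 5 hosts, where 22.1% of all genes were higher. The median log2 difference (the log2 fold change on the log2(TPM + 1) scale, MEN1 shRNA minus control) was -0.31 over the 26 hosts and -0.07 over all genes. The 3 libraries of one group all lay on one side of the other group in 16 hosts, a share close to the 61.8% over all genes. In bulk RNA, a lower level in every cell and fewer cells with the transcript cannot be told apart. The count of higher hosts was 2 without MEN1 shRNA replicate 3 and 3 without control replicate 1. In genes whose groups do not overlap, the 2-sided exact permutation p is 0.1, the smallest that 3 against 3 libraries can give.

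**Figure D1:**
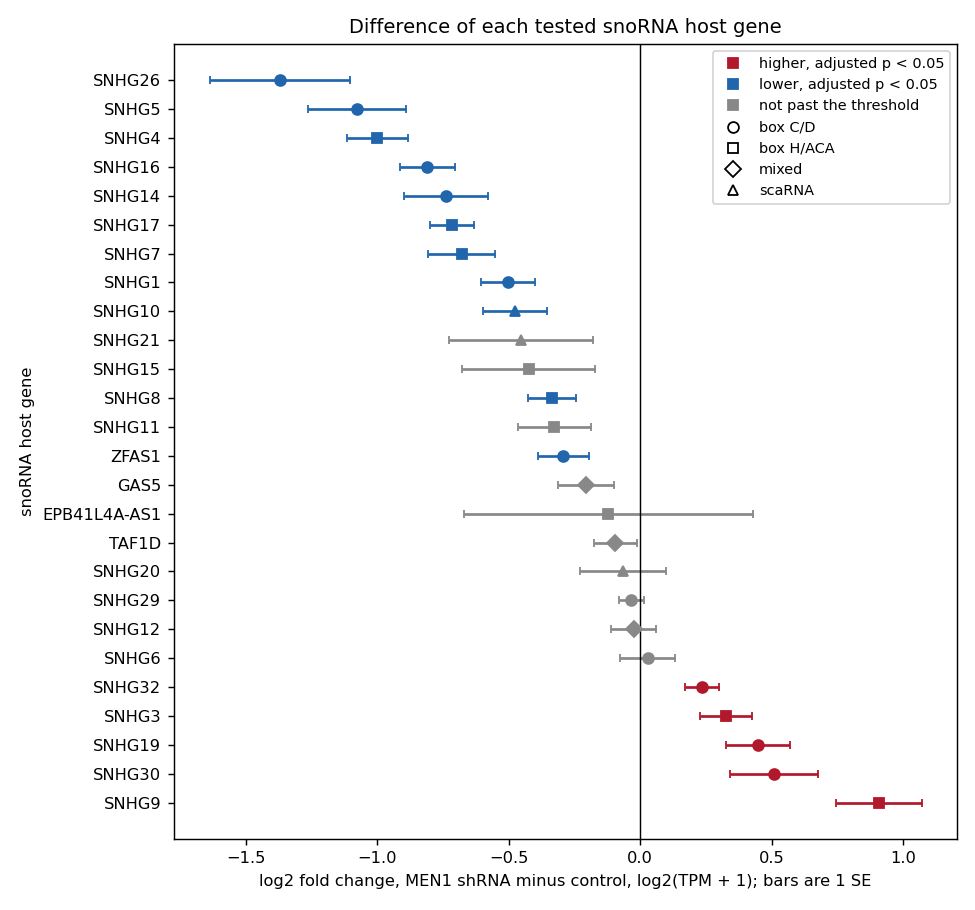
Log2 fold change of the 26 tested snoRNA host genes on the log2(TPM + 1) scale (x axis, MEN1 shRNA minus control, n = 3 libraries each; bars are 1 SE), 1 host per line, ordered by value. Colour marks the limma call and the symbol the class of snoRNA carried; 11 hosts were lower, 5 were higher and 10 did not pass the threshold, from -1.37 for SNHG26 to 0.91 for SNHG9.

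The largest falls were in box C/D hosts. SNHG5 (chromosome 6, 85650491 to 85678932, minus strand), which carries SNORD50A and SNORD50B, had 117, 137 and 97.1 TPM in MEN1 shRNA replicates 1, 2 and 3. Its TPM in control replicates 1, 2 and 3 was 203, 324 and 226. Every MEN1 shRNA library lay below every control, and the mean fell from 251 ± 64.4 to 117 ± 19.9 TPM (log2 difference -1.08, SE 0.187, adjusted p 0.00203 in limma). SNHG26 (chromosome 7, 22854126 to 22872952, plus strand), host of SNORD93, had 6.79, 3.24 and 2.58 TPM in MEN1 shRNA libraries, against 12.7, 11.2 and 11.3 in controls. The groups did not overlap, with MEN1 shRNA replicate 1 lying closest to the controls, and the log2 difference came to -1.37 (SE 0.266, adjusted p 0.00349). SNHG26 rests on thin data, with a mean coverage of 0.905 to 6.85 reads per base.

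SNHG16 (chromosome 17, 76557727 to 76670985, plus strand) carries the 3 SNORD1 snoRNAs. Its TPM was 39.9, 32.2 and 36.1 with the MEN1 shRNA, against 56.9, 65.4 and 69.8 in controls, a fall to 56.4% of the control mean (log2 difference -0.81, SE 0.104, adjusted p 0.000481). SNHG1 (chromosome 11, 62851978 to 62855953, minus strand), which carries 8 box C/D snoRNAs, had 69.7, 63.8 and 63.3 TPM against 80.0, 104 and 97.3. The groups were apart in both hosts, and SNHG1 fell by 0.50 on the log2 scale (SE 0.102, adjusted p 0.0043). SNHG14 (chromosome 15, 24978583 to 25420336, plus strand) is the long host of the imprinted SNORD115 and SNORD116 clusters. It had 4.57, 3.73 and 3.73 TPM against 5.85, 7.43 and 9.05, with no overlap (log2 difference -0.74, SE 0.161, adjusted p 0.00606), at a mean coverage of only 0.267 to 0.964. ZFAS1 (chromosome 20, 49278178 to 49299600, plus strand), host of the SNORD12 family, had 69.0, 58.8 and 53.3 TPM against 75.1, 75.2 and 70.9. Its libraries did not overlap, but its log2 fold change of -0.29 (SE 0.0955, adjusted p 0.0339) was not past the threshold when 1 library was left out in 5 of the 6 cases (adjusted p 0.0554 to 0.0964) or, among other settings, after median-of-ratios scaling (adjusted p 0.124).

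Among box H/ACA hosts, 4 fell. SNHG4 (chromosome 5, 139274102 to 139284899, plus strand) carries SNORA74A and SNORA74D. It had 16.3, 13.5 and 13.2 TPM with the MEN1 shRNA, against 25.7, 31.7 and 31.5 in controls. The mean fell from 29.6 ± 3.39 to 14.3 ± 1.71 TPM, 48.3% of the control level, with no overlap (log2 difference -0.999, SE 0.116, adjusted p 0.000305). SNHG17 (chromosome 20, 38419638 to 38435409, minus strand), host of the SNORA71 family, had 45.4, 37.0 and 41.0 TPM against 67.8, 66.4 and 69.7. Its controls lay close together and its fall (log2 difference -0.72, SE 0.0824, adjusted p 0.00029) had the lowest adjusted p of all host genes. SNHG7 (chromosome 9, 136721366 to 136728184, minus strand), with SNORA17A and SNORA17B, had 26.7, 25.2 and 30.2 TPM against 53.7, 39.3 and 41.1. The groups stayed apart (log2 difference -0.68, SE 0.128, adjusted p 0.00303). SNHG8 (chromosome 4, 118278703 to 118285316, plus strand), host of SNORA24, had 50.0, 42.2 and 43.4 TPM against 53.9, 55.3 and 62.4. It was lower without overlap (log2 difference -0.34, SE 0.0897, adjusted p 0.0153), and not past the threshold without MEN1 shRNA replicate 2 or 3 or control replicate 3 (adjusted p 0.05 to 0.0546).

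The scaRNA hosts had 1 call among 3 tested. SNHG10 (chromosome 14, 95521943 to 95534889, minus strand), host of SCARNA13, had 4.73, 4.75 and 4.82 TPM with the MEN1 shRNA, against 7.43, 5.96 and 7.79 in controls, 67.5% of the control level. The groups did not overlap (log2 difference -0.48, SE 0.12, adjusted p 0.012). With TPM summed over SNHG10 and the scaRNA inside it, the call was lost (adjusted p 0.0812). SNHG20 (chromosome 17, 77086716 to 77099902, plus strand), host of SCARNA16, had 8.05, 5.72 and 7.72 against 6.50, 9.13 and 7.01 TPM and overlapping groups (adjusted p 0.763). SNHG21 (chromosome 15, 82750564 to 82757206, plus strand), host of SCARNA15, ranged from 2.12 to 4.05 TPM with the MEN1 shRNA and from 2.69 to 5.92 in controls (log2 difference -0.45, SE 0.275, adjusted p 0.204). Control replicate 1 was the lowest of its group, and without it SNHG21 was lower (log2 difference -0.74, adjusted p 0.0322).

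Of the 5 hosts that rose, SNHG9 (chromosome 16, 1964895 to 1965509, plus strand) moved the most. This short gene, host of SNORA78, had 6.72, 8.52 and 9.67 TPM with the MEN1 shRNA, against 4.06, 4.58 and 3.19 in controls. The lowest MEN1 shRNA library exceeded the highest control, and the mean was 2.10 times the control mean (log2 difference 0.91, SE 0.163, adjusted p 0.00239). On the same chromosome, SNHG19 (2154792 to 2155405, minus strand), host of SNORD60, had 29.01, 40.2 and 30.3 TPM against 23.9, 23.5 and 24.0. All MEN1 shRNA libraries were above the tightly grouped controls (log2 difference 0.45, SE 0.121, adjusted p 0.0162), although with no filter on low values the adjusted p was 0.059.

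SNHG3 (chromosome 1, 28505980 to 28510892, plus strand) carries SNORA73A and SNORA73B, the U17 snoRNAs needed to process the small-subunit ribosomal RNA. It had 59.4, 51.95 and 63.3 TPM with the MEN1 shRNA, against 46.3, 50.7 and 41.6 in controls, just apart (log2 difference 0.33, SE 0.1, adjusted p 0.0263). The call of SNHG3 was lost on leaving out MEN1 shRNA replicate 1 or 3 or control replicate 1 or 3 (adjusted p 0.0615 to 0.0851), and with no filter on low values (0.0823). SNHG32 (chromosome 6, 31834608 to 31839766, plus strand), host of SNORD48 and SNORD52, had 123, 109 and 121 TPM against 99.9, 98.5 and 100.2. The controls had an SD of 0.925 TPM and all lay below the MEN1 shRNA libraries (log2 difference 0.24, SE 0.0635, adjusted p 0.0158), although without MEN1 shRNA replicate 3 the adjusted p was 0.0549. SNHG30 (chromosome 17, 35568050 to 35574900, plus strand), host of SNORD7, had 7.85, 11.9 and 11.1 TPM against 5.95, 6.83 and 7.87. Its groups touched at the edge, and the log2 fold change of 0.51 (SE 0.167, adjusted p 0.0342) missed the threshold without MEN1 shRNA replicate 2 or 3 or control replicate 1 or 2 (adjusted p 0.0807 to 0.112), with overlapping rows summed (0.0663) or with no filter on low values (0.109).

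Of the 10 hosts that did not pass the test, 3 had over 100 TPM in every library, among them the most abundant host. SNHG29 (chromosome 17, 16438767 to 16480249, plus strand), host of SNORD49A, SNORD49B and SNORD65, had 713, 702 and 693 TPM with the MEN1 shRNA, against 723, 729 and 705 in controls. The SD was 10.4 TPM within the MEN1 shRNA group and 12.8 within the controls, the groups overlapped, and the difference was -0.03 on the log2 scale (SE 0.0479, adjusted p 0.592), turning to 0.06 with median-of-ratios scaling. GAS5 (chromosome 1, 173858559 to 173868882, minus strand), a growth-arrest transcript long used as a readout of nonsense-mediated decay, had 216, 191 and 210 TPM against 213, 225 and 280. Control replicate 3 stood above the other 5 libraries and the groups overlapped (log2 difference -0.21, SE 0.107, adjusted p 0.14), and without that library the difference was -0.090. SNHG6 (chromosome 8, 66920561 to 66926398, minus strand), host of SNORD87, had 137, 151 and 157 TPM against 124, 159 and 155, with a difference of 0.03 (SE 0.105, adjusted p 0.833).

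TAF1D (chromosome 11, 93729948 to 93784391, minus strand) had 60.9, 59.2 and 63.9 TPM with the MEN1 shRNA, against 58.7, 70.5 and 67.9 in controls (log2 difference -0.09, adjusted p 0.366). SNHG12 (chromosome 1, 28578538 to 28583132, minus strand), which carries both snoRNA classes, had 10.9, 10.5 and 9.75 TPM against 10.8, 10.4 and 10.5. Its difference was -0.02 (SE 0.0858, adjusted p 0.834) and 0.06 with median-of-ratios scaling, so no direction holds for it. SNHG15 (chromosome 7, 44983019 to 44986961, minus strand), host of SNORA9, had 19.6, 11.8 and 20.6 TPM against 31.6, 21.8 and 17.6, with overlap (log2 difference -0.42, SE 0.254, adjusted p 0.198); without MEN1 shRNA replicate 2 it was -0.19 and without control replicate 1 it was -0.20. SNHG11 (chromosome 20, 38446343 to 38450940, plus strand), host of SNORA60 and SNORA71E, had 5.33, 6.32 and 4.24 TPM against 7.18, 6.75 and 6.54. The SNHG11 libraries did not overlap, yet its adjusted p was 0.0849, and 0.0364 without MEN1 shRNA replicate 2.

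EPB41L4A-AS1 (chromosome 5, 112160526 to 112164818, plus strand), host of SNORA13, varied more within groups than any other tested host. It had 3.13, 14.6 and 7.61 TPM with the MEN1 shRNA, against 14.0, 3.64 and 9.23 in controls, a 4.66-fold range among replicates of one group. The highest and the lowest of all 6 libraries were both in the MEN1 shRNA group (log2 difference -0.12, SE 0.551, adjusted p 0.873). In MEN1 shRNA replicate 1, the lowest of the 6 for the host, SNORA13 was listed at 3.11 TPM, against 0.17 to 0.985 in the other 5 libraries. How reads were divided between the 2 genes was not tested.

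**Figure D2:**
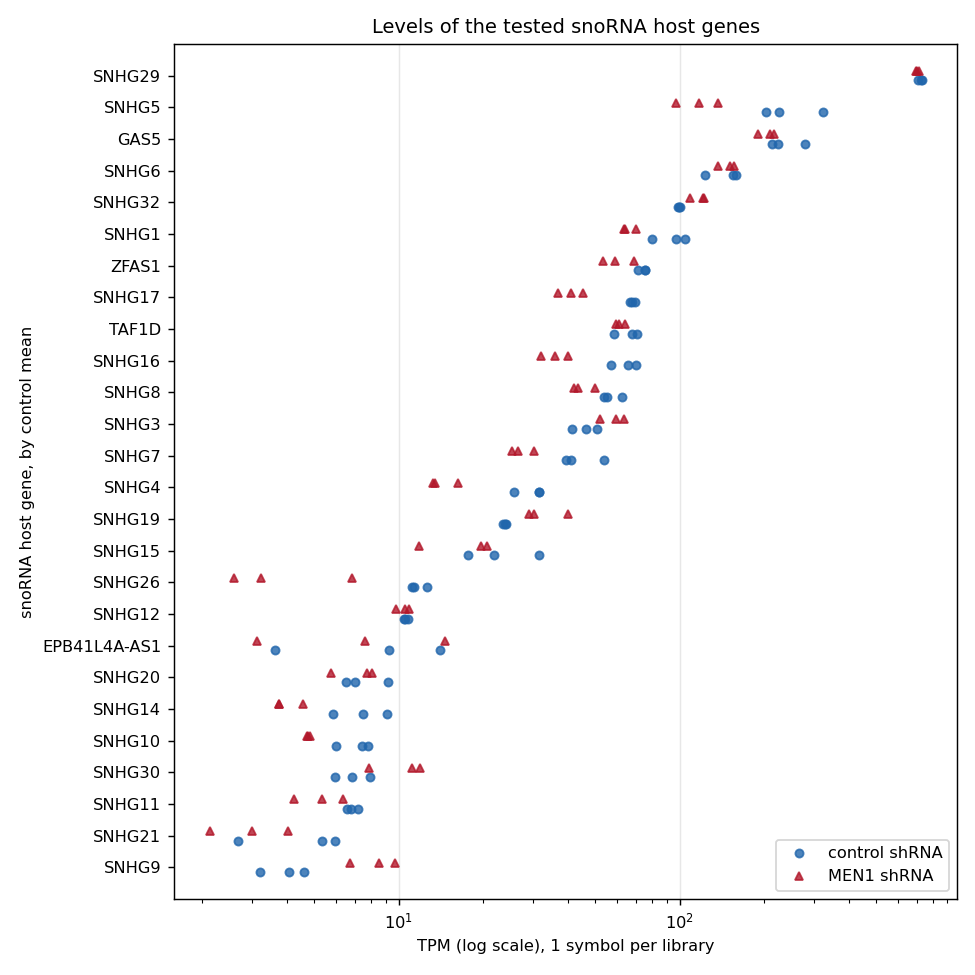
TPM (x axis, log scale) of the 26 tested snoRNA host genes in each of the 6 libraries, 1 host per line, ordered by control mean. Triangles are MEN1 shRNA and circles control shRNA libraries (n = 3 each). SNHG29 stands alone at 693 to 729 TPM, SNHG5 and SNHG26 show separate groups, and EPB41L4A-AS1 spreads over both groups.

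The 6 hosts that could not be tested were near or below the limit of what these libraries show. SNHG18 and SNHG28 were listed at 0 in all 6 libraries. SNHG22, SNHG25, SNHG27 and SNHG31 had at most 0.315, 1.33, 0.0774 and 0.312 TPM in any library. These 6 enter no count of calls.

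Added up, the 32 hosts gave 1857, 1798 and 1802 TPM with the MEN1 shRNA and 2015, 2212 and 2137 TPM in controls. Every MEN1 shRNA library had the smaller sum. The mean sum went from 2121.5 TPM in controls to 1818.9 TPM with the MEN1 shRNA, and the mean of SNHG5 alone from 251 to 117 TPM. SNHG29 alone made up 38.4 to 39.1% of the sum with the MEN1 shRNA and 32.97 to 35.9% in controls. Without it the sums were 1096 to 1143 against 1292 to 1483 TPM.

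The counts by class of snoRNA in the span are small and stand beside 31.5% of all genes lower and 22.1% higher. Of 11 tested box C/D hosts, 6 were lower, 3 higher and 2 not past the threshold. Of 9 tested box H/ACA hosts, 4 were lower, 2 higher and 3 not past it. The 3 tested hosts that carry both classes, GAS5, TAF1D and SNHG12, had 0 calls. With so few hosts per class, whether the classes differ was not tested.

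The snoRNAs themselves are largely outside what poly(A) libraries measure. The spans of 30 hosts hold 147 snoRNA or scaRNA rows on the same strand, of which 117 were at 1 TPM or less in every library. Only 13 reached the level needed for testing, and 1 of them passed the threshold, beside 53.6% of all genes. The highest value of any of the 13 was 10.1 TPM, so the count does not show that snoRNAs were unchanged. The row that passed was SNORD12C in ZFAS1, with 2.14, 1.18 and 2.08 TPM with the MEN1 shRNA, against 0.244, 1.15 and 0.458 in controls. It was higher (log2 difference 0.81, SE 0.254, adjusted p 0.0283 in limma), while its host was lower. SNORA50C had 5.30 to 10.0 TPM in the 6 libraries, above its host SNHG25 at 0 to 1.33 TPM. Reads from unspliced host RNA and from a snoRNA cannot be told apart in these rows.

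Several host genes lie close to another gene, and these neighbours are described beside them. By the spans of the tables, 6 tested hosts start within 1000 bases of a tested gene on the other strand. In 4 of these 6 pairs both genes passed the test, each time in opposite directions. Over all genes 53.6% passed it, 22.1% as higher and 31.5% as lower. The calls of ZFAS1 and of RPS2, the gene opposite SNHG9, were near the threshold (adjusted p 0.0339 and 0.0412 in limma). Whether such pairs move apart more often than other genes was not tested. SLC3A2, the heavy chain of amino acid transporters, starts opposite SNHG1 and had 220, 225 and 210 TPM with the MEN1 shRNA, against 136, 127 and 152 in controls (log2 difference 0.66, SE 0.0739, adjusted p 0.000264). All its MEN1 shRNA libraries were higher, whereas all those of SNHG1 were lower. ZNFX1, an RNA helicase opposite ZFAS1, had 38.3, 44.7 and 48.3 TPM against 18.3, 19.1 and 20.2 (log2 difference 1.14, SE 0.0967, adjusted p 8.4e-05). TRAF7, a ubiquitin ligase opposite SNHG19, had 92.6, 81.3 and 80.4 TPM against 111.8, 111.8 and 113.5 (log2 difference -0.40, SE 0.0682, adjusted p 0.00175).

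RPS2, the ribosomal protein gene opposite SNHG9, had 3315, 4289 and 4783 TPM with the MEN1 shRNA, against 6480, 5690 and 4763 in controls. The RPS2 groups overlapped slightly, at a log2 fold change of -0.46 (SE 0.157, adjusted p 0.0412). The other 2 pairs had at most 1 call: MED17, a Mediator subunit opposite TAF1D, was higher (log2 difference 0.60, SE 0.17, adjusted p 0.0198), and ZBTB37 opposite GAS5 was not past the threshold (adjusted p 0.177). Among untested hosts, ACAA2 opposite SNHG22 was higher (log2 difference 1.05, SE 0.122, adjusted p 0.000306), and BARD1 opposite SNHG31 was not past the threshold (adjusted p 0.304).

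The pairing depends on which start is used. With RefSeq starts, a definition chosen after the values were seen, 5 tested hosts had such a partner, and of 3 pairs with both genes called 2 were opposite (SNHG1 with SLC3A2 and SNHG19 with TRAF7) and 1 was not. In that pair GLRX5, an iron-sulfur cluster assembly protein 178 bases from SNHG10, was lower together with its host (from 230 TPM in controls to 159, log2 difference -0.53, SE 0.0632, adjusted p 0.000343). The RefSeq start of TAF1D is not within 1000 bases of that of MED17, and the pairs of ZFAS1 and SNHG9 could not be looked up because ZNFX1, RPS2 and SNHG9 matched no entry. Opposite directions did not hold in all head-to-head pairs under this definition.

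**Figure D3:**
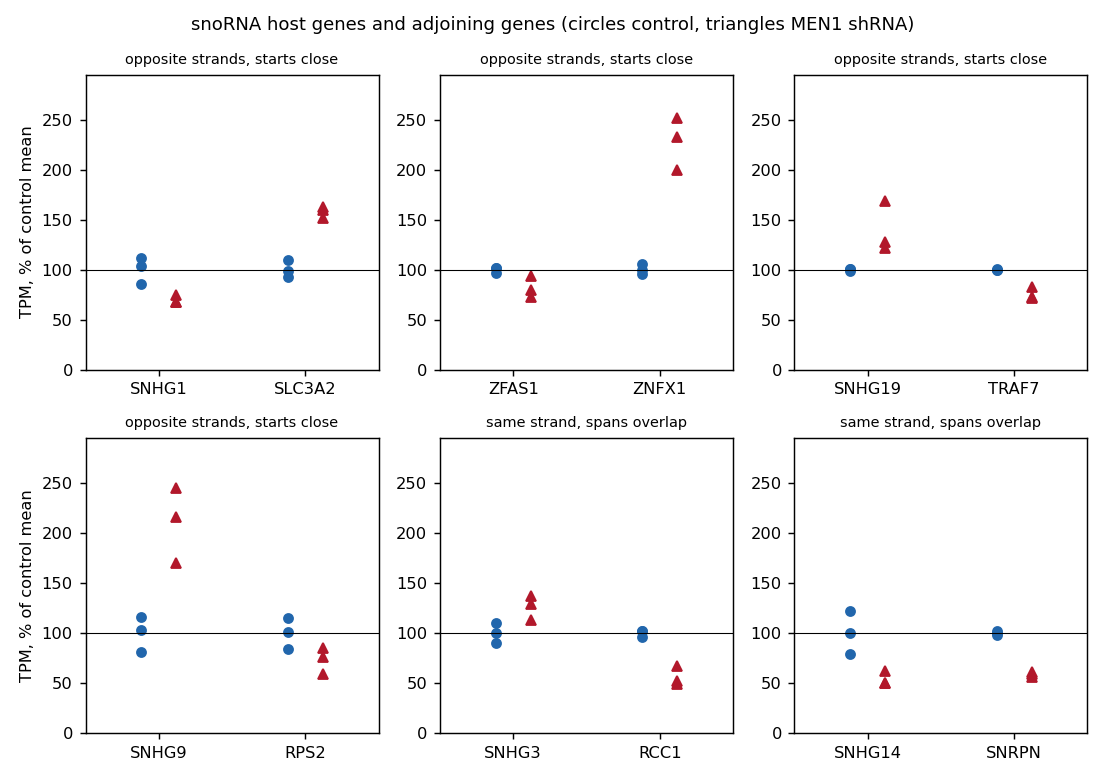
TPM as a percentage of each gene's control mean (y axis, from 0) for 6 host genes and the gene beside each, with control libraries as circles and MEN1 shRNA libraries as triangles (n = 3 each). The 4 head-to-head pairs were picked because both genes were called in opposite directions. Their MEN1 shRNA libraries lie on opposite sides of 100% for host and partner. Those of SNHG3 and RCC1, on the same strand, do so too, while SNHG14 and SNRPN are both lower. TAF1D with MED17, GAS5 with ZBTB37, and SNHG10 with GLRX5, which were both lower, are not shown.

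On the same strand, SNHG3 lies within the span of RCC1, the exchange factor of the GTPase Ran, and the pair moved apart. RCC1 had 82.0, 60.9 and 63.9 TPM with the MEN1 shRNA, against 118, 126 and 126 in controls (log2 difference -0.84, SE 0.11, adjusted p 0.000523), while SNHG3 was higher. SNRPN, the imprinted gene that overlaps SNHG14, was lower as SNHG14 was: 36.9, 37.7 and 34.8 TPM against 63.4, 62.3 and 61.1 (log2 difference -0.76, SE 0.0607, adjusted p 6.96e-05). SEC14L1, which overlaps SNHG20, was higher (from 29.1 TPM in controls to 47.9, log2 difference 0.70, SE 0.0833, adjusted p 0.000328), while SNHG20 was not past the threshold. The MATR3 entry that overlaps SNHG4 had 35.2, 42.99 and 137 TPM against 79.0, 58.0 and 67.8, so that a single MEN1 shRNA library decided its mean (adjusted p 0.754). How the authors' quantification divided reads between such overlapping genes is not given in the sources used here.

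The RNA of most core proteins that bind snoRNAs was lower with the MEN1 shRNA, and protein was not measured. For all 4 core proteins of box C/D particles the RNA passed the threshold as lower, beside 31.5% of all genes. FBL (fibrillarin), the methyltransferase, had 769, 661 and 661 TPM with the MEN1 shRNA, against 1287, 1234 and 1248 in controls (log2 difference -0.85, SE 0.0718, adjusted p 8.2e-05). NOP56 fell from 382 ± 10.6 to 242 ± 28.6 TPM (log2 difference -0.67), SNU13 from 201 ± 5.96 to 131 ± 9.78 (-0.62) and NOP58 from 258 ± 13.8 to 215 ± 6.26 (-0.26), with adjusted p of 0.000567, 0.000224 and 0.0069. Of the 4 box H/ACA core proteins, 3 had lower RNA levels, beside the same 31.5%. GAR1 fell from 173 ± 2.75 to 98.9 ± 6.97 TPM (log2 difference -0.80), NHP2 from 350.2 ± 15.9 to 221 ± 7.69 (-0.66) and DKC1 (dyskerin), the pseudouridine synthase, from 195 ± 2.86 to 135 ± 19.9 (-0.53), with adjusted p of 6.8e-05, 8.9e-05 and 0.00275. NOP10 had 267, 282 and 49.9 TPM against 351, 330 and 339, and the low value of MEN1 shRNA replicate 3 left it at an adjusted p of 0.152.

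Of 16 factors that assemble or process snoRNA particles, 12 were lower (75%, beside 31.5% of all genes) and 0 higher in limma. The 3 with the lowest adjusted p were NOLC1, a nucleolar chaperone (353 ± 11.1 to 145 ± 18.0 TPM, log2 difference -1.28), SHQ1, the chaperone of dyskerin (28.6 ± 1.41 to 13.1 ± 0.522, -1.06) and ZNHIT6, a box C/D assembly factor (17.6 ± 1.04 to 7.80 ± 0.452, -1.08). The median log2 fold change was -0.64 over the box C/D core, -0.73 over the box H/ACA core and -0.54 over the assembly factors. These medians compare with -0.31 for the hosts and -0.07 for all genes.

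Factors of the pathways known to set host RNA levels were called at shares near those of all genes. Of 15 nonsense-mediated decay factors, 5 were lower and 2 higher (46.7% called, beside 53.6% of all genes). The lowest adjusted p belonged to MAGOH and EIF4A3, both exon junction proteins (log2 differences -0.43 and -0.40), and to SMG5 (-0.28). Of 10 regulators of TOP mRNAs, 4 were lower and 1 higher (50.0% called, beside the same 53.6%). EIF4EBP2 and EIF4EBP1, repressors of cap-dependent translation, fell from 33.9 ± 0.419 to 8.84 ± 0.497 and from 306 ± 27.3 to 112 ± 15.2 TPM (log2 differences -1.83 and -1.45). LARP1, which binds TOP starts, rose from 217 ± 6.48 to 303 ± 13.5 TPM (log2 difference 0.48, adjusted p 0.000308).

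Ribosomal protein genes, which share the TOP start, were lower more often than higher. Of 81 tested, 45 were lower (55.6%, beside 31.5% of all genes) and 2 higher (2.47%, beside 22.1%), with a median log2 fold change of -0.24. RPL37A was lower (601 ± 15.3 to 401 ± 21.8 TPM, log2 difference -0.58). RPS27L, a p53-induced relative of RPS27, was higher (30.6 ± 4.05 to 60.3 ± 7.52 TPM, log2 difference 0.95). Other genes also hold a snoRNA row inside their span: of 159 protein-coding ones tested, 74 were lower and 23 higher, with a median of -0.20 (61.0% called, beside 53.6% of all genes). These 159 include 28 of the ribosomal protein genes and the core proteins NOP56, NOP58 and DKC1, already counted above; of the other 128, 58 were lower and 23 higher. Among the lowest in adjusted p, DGLUCY and ANKRD27 were lower (log2 differences -1.35 and -1.18) and COX7C, a subunit of cytochrome c oxidase, was higher (1.72). The difference between these lists and the hosts was not tested.

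**Figure D4:**
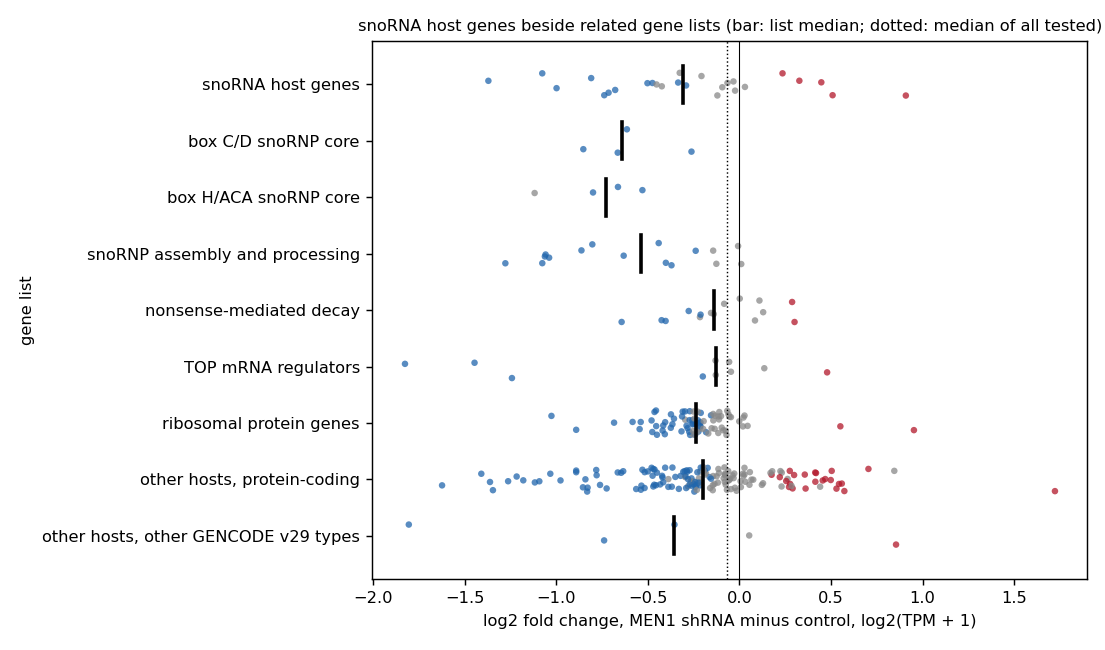
Log2 fold change on the log2(TPM + 1) scale (x axis, MEN1 shRNA minus control) of each tested gene in the snoRNA host list and in related lists (y axis); each point is a gene, blue if lower, red if higher and grey if not past the threshold. The thick bar is the list's median, from -0.73 for the box H/ACA core to -0.13 for the TOP regulators, the host genes at -0.31, and the dotted line is the -0.07 of all genes.

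Other short motifs were read in the promoter windows of 250 bases before to 50 after the RefSeq start, on both strands. The E-box CACGTG was in 2 of 28 windows (7.14%), beside 7.26% of all windows. CCAAT was in 7 (25.0%, beside 34.6%) and the GATA motif AGATAA in 4 (14.3%, beside 10.3%). The 4 tested hosts with AGATAA were SNHG3 and SNHG32, both higher, and GAS5 and SNHG20, both not past the threshold. The 19 tested hosts whose window lacks it had 11 lower and 2 higher, beside 31.5% lower and 22.1% higher over all genes. Hosts without the other motifs were also lower more often than higher. The 21 tested hosts without CACGTG had 10 lower, 3 higher and 8 not past the threshold. The 17 tested hosts without CCAAT had 9 lower and 2 higher, and the 6 with it had 2 lower and 2 higher. The 17 without CTTTT near the start also had 9 lower and 2 higher. Whether any motif goes with a direction was not tested. SNHG7 and SNHG30 held CACGTG, and they moved in opposite directions.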

How the data were processed

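Per the labels' protocols, poly(A) RNA was made into strand-specific libraries. The submitters' processing notes name FastQC, Trimmomatic, STAR 2.7.1a, Picard 2.20.4, StringTie 2.0.4 and hg38; the sources used here do not give the annotation or the strand setting. The deposited tables give, per the file headers, TPM, FPKM and coverage (mean reads per base, not scaled for depth) for 62754 genes. TPM is a share of 1000000, so it depends on composition and on the division of reads between overlapping genes. Residues below 0 in control replicate 2 (1 TPM value and 2 coverage values) were set to 0. No counts were used. Depth was inferred from the ratio of coverage to FPKM, at 302 bases per read pair.

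Genes that reached 1 TPM in 3 or more of the 6 libraries (14294) were fitted with limma 3.58.1 (R 4.3.3; lmFit and eBayes with trend) on log2(TPM + 1), which understates changes of low genes. Tests were 2-sided; p was adjusted over all genes (Benjamini-Hochberg), with a threshold of 0.05. Each adjusted p comes from this fit unless an alternative is named. Data of 14294 genes were simulated for this comparison. Changes of 0.5, 1 and 2 on the log2 scale were given to 67, 67 and 66 genes. They were recovered in 38.8, 67.2 and 92.4% of those genes, and 14 unchanged genes were called as well. Far fewer genes changed in the simulation than were called in the data, which makes the adjusted threshold stricter there. Other work used Python 3.11.15 and pandas 2.3.3.

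The members and gene lists were chosen with earlier results of these data known. All tested members are named. Each list contributes the called genes of lowest adjusted p, 3 at most, with all core snoRNA proteins and neighbours within 1000 bases head to head or overlapping on the same strand. All 32 members were found in GENCODE v29 at overlapping positions. snoRNA classes come from snoRNA names within each span in the tables and RefSeq. Pseudocount, filter, scaling, overlapping rows, threshold, replicate block and left-out libraries were varied. Some items of these lists are not reported here.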

Additional observations from a re-analysis of the deposited data

How the results depend on the processing

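Over 20 alternatives, 519 values of single host genes were recomputed: 447 kept their direction and their side of the threshold, 51 were no longer past it, 2 passed it newly and 19 changed sign. Of the 16 calls, 9 held in each alternative except the adjusted p threshold of 0.01 and limma's treat with a minimum log2 difference of 0.5. Treat gave 2126 of the 14294 genes (7657 with the main test). Among the 26 hosts it gave 2 calls, SNHG26 and SNHG4, 2 of them lower and 0 higher. The threshold of 0.01 gave 5527 of the 14294 genes and 9 of the 26 hosts, 1 of them higher. At these stricter settings a smaller share of the hosts than of all genes was called, unlike in the main fit. Without a filter on low values 2 hosts were higher and the hosts' median log2 fold change was -0.16. This median was -0.23 with median-of-ratios scaling and with a pseudocount of 5, -0.22 with quantile normalization and -0.21 with overlapping rows summed, against -0.31. The median of all genes moved with the scaling as well. It was -0.07 in the main fit, 0.0078 with median-of-ratios scaling, -0.0045 with quantile normalization and -0.012 after rescaling without globin and mitochondrial genes. The log2 ratio of summed host TPM was -0.22, then -0.13 with median-of-ratios scaling and -0.15 after rescaling without globin and mitochondrial genes. Leaving out 1 library gave 2 to 4 hosts higher, 9 to 11 lower, 11 to 15 calls, a median of -0.36 to -0.22, a sum ratio of -0.26 to -0.19 and 6577 to 7542 genes in all. The share of higher among all calls was 41.2%, and 43.003 to 49.5% under the other scalings. Sign changes concerned hosts without a call. SNHG12 was at 0.0049 with FPKM, 0.056 with median-of-ratios, 0.11 with quantile normalization, 0.037 rescaled, 0.13 with overlapping rows and 0.018 without MEN1 shRNA replicate 3 (-0.056 to 0.018 over left-out libraries). SNHG20 was at 0.012 with median-of-ratios, 0.043 with quantile normalization and 0.068 with overlapping rows, and 0.069 and 0.063 without MEN1 shRNA or control replicate 2. SNHG29 was at 0.055 with median-of-ratios and 0.034 rescaled. EPB41L4A-AS1 was at 0.24 with array weights, 0.069 with overlapping rows, and 0.38 and 0.25 without MEN1 shRNA or control replicate 1 (-0.59 to 0.38 over left-out libraries). SNHG6 was at -0.011 without MEN1 shRNA replicate 3 and -0.084 without control replicate 1 (-0.084 to 0.096 over left-out libraries). The cause was not tested. Titles number the replicates in both groups, but same-numbered libraries did not deviate together (correlations 0.0171, -0.0265 and -0.0124 over tested genes). A replicate block gave 15 host calls, 4 higher and 11 lower, and 7012 genes in all, and ended the call of SNHG3 (adjusted p 0.0644 in limma). Among the calls, SNHG14 and SNHG26 had the lowest mean coverage, at most 0.964 and 6.85 reads per base. This is a mean over the bases of each gene and does not give the number of reads behind a call.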

Other observations

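Among genes outside the SNHG name that hold a snoRNA and that GENCODE v29 does not class as protein-coding, 5 were tested. DANCR had 30.6, 13.1 and 13.4 TPM in MEN1 shRNA replicates 1, 2 and 3 and 27.4, 95.4 and 99.5 TPM in control replicates 1, 2 and 3. It was lower (log2 difference -1.81, SE 0.522, adjusted p 0.0208 in limma), but control replicate 1 lay below MEN1 shRNA replicate 1. UBA6-DT fell from 12.8 ± 1.41 to 7.25 ± 0.843 TPM (log2 difference -0.74, adjusted p 0.0015) and TMEM161B-DT from 5.71 ± 0.794 to 4.23 ± 0.384 TPM (-0.36, adjusted p 0.0489), without overlap (SD, n = 3 each). RPL10P19, a pseudogene whose reads may be shared with its parent gene, was listed at 4.08 ± 0.655 against 1.84 ± 0.593 TPM (log2 difference 0.86, adjusted p 0.00672), and TIMM23B-AGAP6 did not pass the threshold (adjusted p 0.844).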
